A study of Homo sapiens with 12 samples.

Results

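The genes described here make the peptide supply and the surface complex of MHC class I antigen presentation. The group holds 9 of the 39099 genes in the data: the heavy chains HLA-B, HLA-C and HLA-E, the light chain B2M, the peptide transporter subunits TAP1 and TAP2, the inducible proteasome subunits PSMB8 and PSMB9, and the class I transactivator NLRC5. They were chosen by name, and the level of each was taken as the sum of its transcripts. RNA was measured in AsPC-1 and PANC-1 (written ASPC1 and PANC1 in the labels), which are established human pancreatic cancer lines. Each line was sampled as a mock control, with overexpression of TAp63 and with overexpression of deltaNp63, the p63 proteins with and without the N-terminal transactivation domain. Every one of the 6 groups holds 2 libraries labelled as biological replicates, 12 in all. The labels name no other allele or agent. How the constructs were delivered, whether cells were clones or pools, and the time of harvest are not given in the sources used here.

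Class I molecules carry peptides from inside the cell to its surface, where CD8+ T cells read them. Proteasomes cut the peptides, and the inducible subunits PSMB8 and PSMB9 replace the constitutive subunits PSMB5 and PSMB6 in the immunoproteasome. TAP1 and TAP2 form the pump that moves peptides into the endoplasmic reticulum, where they are loaded onto a heavy chain paired with B2M. NLRC5 joins the RFX complex on class I promoters, and interferons raise much of the pathway through STAT and IRF factors.

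Promoter sequence was examined first, since most of these genes are known as shared targets of those factors. RefSeq promoter windows on GRCh38.p14 matched 7 of the 9 genes, and HLA-E and NLRC5 had no entry in the table. Both strands were searched over the 250 bases before each start site. The SXY module that the NLRC5 and RFX complexes use was searched in a short form, TGACG (the X2 box) followed after 18 to 22 bases by ATTGG (the Y box). This pair was found in HLA-C, HLA-B and B2M. It stood in 87 of all 35116 promoter windows, or 0.248%. The stretches below, read 5′ to 3′ on the strand of the gene, show it with both boxes in capitals.

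HLA-C, chr6:31272156-31272209, minus strand: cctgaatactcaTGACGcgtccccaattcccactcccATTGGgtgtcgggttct

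HLA-B, chr6:31357256-31357285, minus strand: TGACGcgtccccacttcccactcccATTGG

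B2M, chr15:44711430-44711484, plus strand: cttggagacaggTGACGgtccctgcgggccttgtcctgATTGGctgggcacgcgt

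The core of the interferon-stimulated response element, GAAA, any 2 bases and GAAA, which STAT and IRF proteins bind, was found in B2M, TAP1 and TAP2. It stood in 3.02% of all windows. In B2M and in TAP1, where it reads on the opposite strand, 2 matches overlapped and are capitalised as 1 run. A kappaB element, searched as GGG, any 2 bases, TT, any base and CC, and held by 5.07% of windows, was found in HLA-B, B2M and TAP1. A GAS element (TTC, any 3 bases and GAA), a form of the interferon-gamma activated site, was held by 6.57% of windows. It was found in PSMB8 and TAP1, which have 2 windows each. In both genes the match lay at the second start site, farther into the gene (32844047 for PSMB8 and 32852761 for TAP1). Capitals mark the matched letters in the stretches that follow. In B2M the second run is the kappaB match, which reads on the opposite strand.

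B2M, chr15:44711361-44711413, plus strand: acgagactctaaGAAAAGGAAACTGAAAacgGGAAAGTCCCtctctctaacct

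TAP1, chr6:32853816-32853845, minus strand: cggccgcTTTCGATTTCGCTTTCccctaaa

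TAP2, chr6:32838778-32838807, minus strand: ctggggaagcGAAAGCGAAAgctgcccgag

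HLA-B, chr6:31357335-31357368, minus strand: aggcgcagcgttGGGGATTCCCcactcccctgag

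TAP1, chr6:32853757-32853786, minus strand: gcctgttcctGGGACTTTCCgagagccccg

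PSMB8, chr6:32844092-32844124, minus strand: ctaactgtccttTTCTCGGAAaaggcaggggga

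TAP1, second start site, chr6:32852930-32852962, minus strand: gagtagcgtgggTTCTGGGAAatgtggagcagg

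The window of PSMB9 held none of these 3 elements and no TGACG and ATTGG pair. Some stretches lie before a RefSeq start site yet inside untranslated regions of transcripts in the GENCODE v44 annotation. All 30 bases did so for the HLA-B pair, the TAP2 interferon element and the TAP1 kappaB element. A match describes letters in a window, and no binding was measured.

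The overexpressed gene was then checked in every library. TP63 was at 1.10 and 0.817 TPM (a relative abundance that sums to 1000000 in a library) in the AsPC-1 mock replicates, at 102 and 170 TPM with TAp63 and at 245 and 350 TPM with deltaNp63. In PANC-1 it was at 0.119 and 0.0245 TPM with mock, 324 and 342 TPM with TAp63, and 815 and 1187 TPM with deltaNp63. The number of genes at 1 TPM or more ranged from 12212 to 13161. All 7 markers listed for pancreatic ductal epithelium averaged at least 1 TPM. Of 12 leukocyte markers, 2 did so, LYZ and CD68. The pan-leukocyte marker PTPRC was at most 0.0102 TPM in any library, and CD2 was listed at 0 in all 12. Of 7 fibroblast markers, 2 averaged at least 1 TPM, LUM and COL1A1, which encode the matrix proteins lumican and a type I collagen chain. LUM was at 177 to 288 TPM in the AsPC-1 libraries and at most 0.0523 TPM in PANC-1. COL1A1 was at 80.8 to 111 TPM in PANC-1 and at most 0.383 TPM in AsPC-1. The other 5, PDGFRA and PDGFRB among them, were below 1 TPM in every library. Neither LUM nor COL1A1 passed for a construct against mock in either line with limma, and 1 of these 8 tests had an unadjusted p under 0.05 (COL1A1 with TAp63 in PANC-1, log2 fold change 0.36). The endothelial markers VWF, CDH5 and KDR summed to at most 0.312 TPM, and PECAM1, also listed, had no value in the data. These are bulk samples, so fewer cells of a type and less RNA per cell cannot be told apart.

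In AsPC-1, class I RNA was lower with either construct. The mean of a gene with TAp63 ranged from 49.1% to 84.6% of its mock mean over the 9 genes, with a median of 59.9%. With deltaNp63 the range was 42.1% to 79.4%, with a median of 44.3%. In PANC-1 the means stayed between 85.8% and 111% of mock. The plot of TPM by library shows these values.

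**Figure D1:**
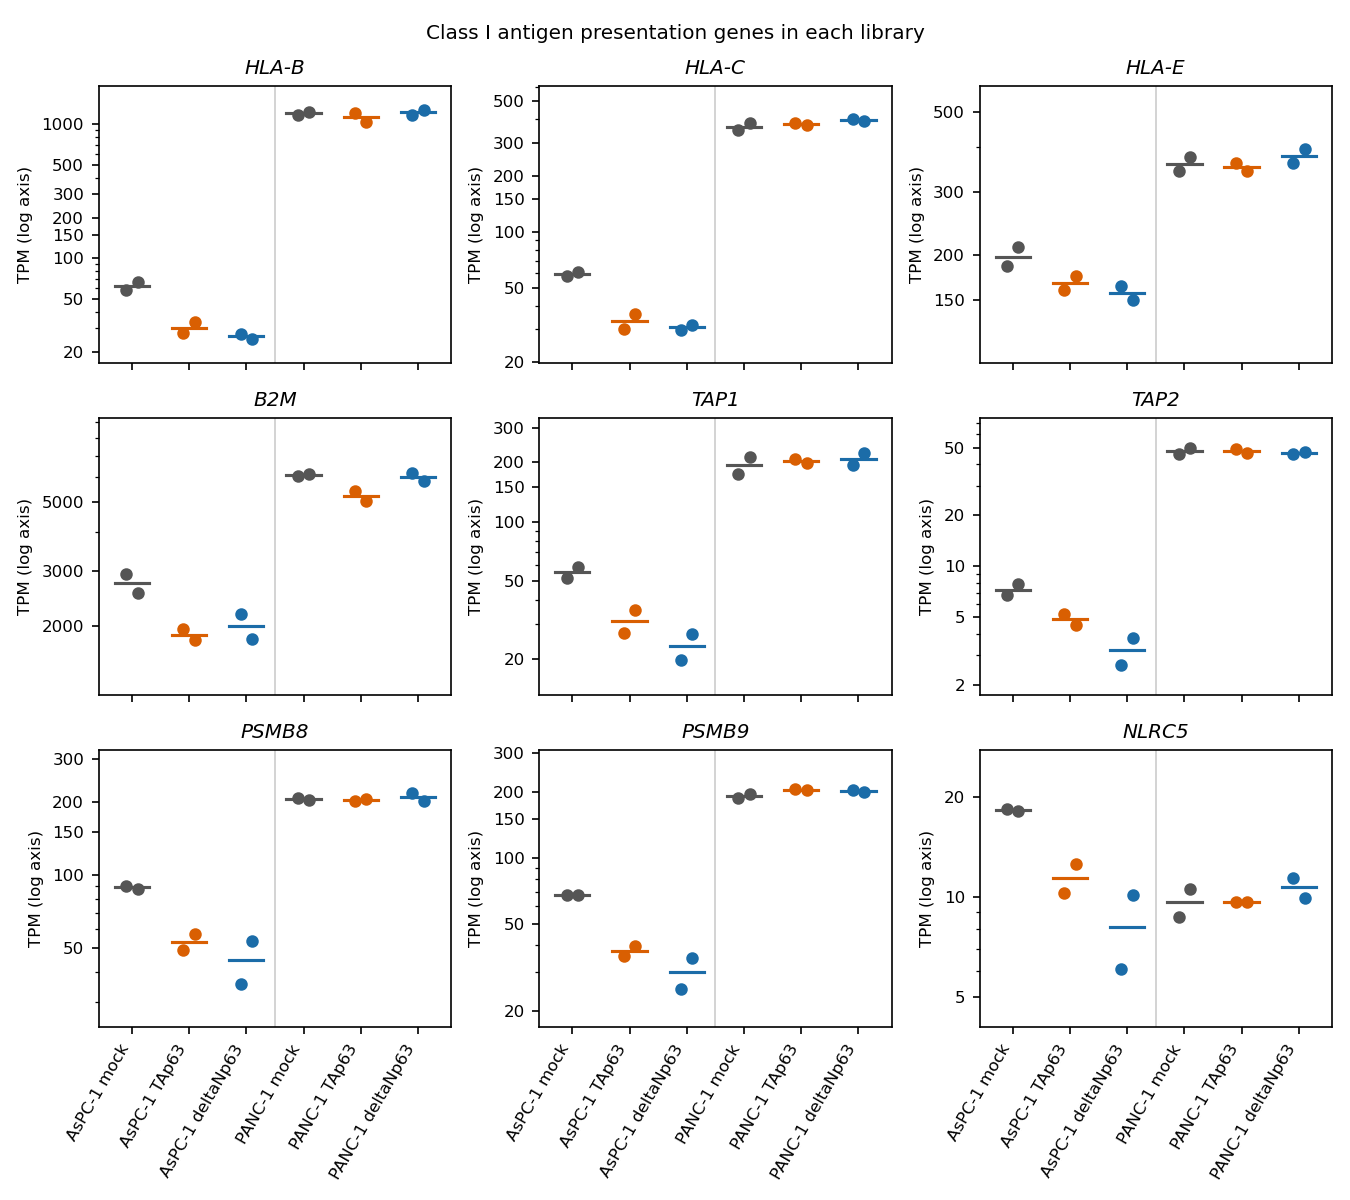
TPM of the 9 class I genes (log axes) in the 12 libraries, by cell line and construct; points are libraries and lines are group means of 2. For all 9 genes both AsPC-1 mock libraries lie above the 4 libraries with a construct. For 8 genes, all but NLRC5, every PANC-1 library lies above every AsPC-1 library. The share of all tested genes separated in either of these ways was not counted. Mock lay above a single construct without overlap for 35.4% of tested genes with TAp63 and 41.1% with deltaNp63. In the mock libraries 44.6% of tested genes were called higher in PANC-1.

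Among the heavy chains, HLA-B was at 57.9 and 66.0 TPM in the AsPC-1 mock libraries, 27.6 and 33.3 TPM with TAp63, and 27.4 and 24.9 TPM with deltaNp63. Both mock libraries lay above both constructs, and the deltaNp63 libraries lay just below those with TAp63. On the log2 scale HLA-B fell by 1.00 in the TAp63 libraries (SE 0.117, limma adjusted p 0.00376). With deltaNp63 it fell by 1.21 (SE 0.117, limma adjusted p 0.000513). All fold changes are on the log2(TPM + 1) scale, which understates the change of low genes, and come from a limma model of all 12 libraries with p-values adjusted over 14767 genes. HLA-B and HLA-C passed with each construct in all 12 fits that left out 1 library.

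HLA-C was at 58.1 and 61.0 TPM with mock, 30.2 and 36.2 TPM with TAp63, and 29.7 and 31.8 TPM with deltaNp63. Its mock libraries were likewise above all others of the line, and the constructs overlapped. The fall of HLA-C was -0.83 with TAp63 (SE 0.0946, limma adjusted p 0.00365). It was -0.93 with deltaNp63 (limma adjusted p 0.000716). HLA-E, the non-classical chain that NKG2A receptors read, had the smallest fold changes of the 9. It was at 187 and 211 TPM with mock, 160 and 176 TPM with TAp63, and 164 and 151 TPM with deltaNp63. Its log2 fold changes of -0.24 and -0.33 did not pass (limma adjusted p 0.263 and 0.057).

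B2M, the chain that all class I molecules share, was at 2925 and 2538 TPM with mock, 1947 and 1798 TPM with TAp63, and 2179 and 1817 TPM with deltaNp63. The constructs overlapped each other and both lay below mock. Its log2 fold changes were -0.54 with TAp63 and -0.45 with deltaNp63 (limma adjusted p 0.0415 and 0.0356), fold changes nearer 0 than those of HLA-B and HLA-C. These calls depended on the scaling. With each library centred on its median they were -0.41 and -0.25 (limma adjusted p 0.21 and 0.231). The B2M call with TAp63 was kept in 2 of the 12 fits that left out 1 library, those without either AsPC-1 deltaNp63 library, and the call with deltaNp63 in 4 of 12, those without 1 library of either construct in AsPC-1.

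The transporter and immunoproteasome genes are neighbours on chromosome 6 (GENCODE v44, hg38): TAP2 lies from 32821833 to 32838739, PSMB8 from 32840717 to 32844679, PSMB9 from 32844136 to 32859851 and TAP1 from 32845209 to 32853816. TAP1 was at 51.8 and 58.7 TPM with mock, 27.0 and 35.5 TPM with TAp63, and 19.7 and 26.8 TPM with deltaNp63. Both deltaNp63 libraries were below both TAp63 libraries, by a margin of under 1 TPM. TAP1 fell by 1.23 with deltaNp63 (SE 0.17, limma adjusted p 0.006), and its log2 fold change with TAp63 was -0.81 (limma adjusted p 0.0809). TAP2, its partner, was at 6.74 and 7.85 TPM with mock, 5.23 and 4.52 TPM with TAp63, and 2.61 and 3.78 TPM with deltaNp63. The 3 groups did not overlap. It fell by 0.99 with deltaNp63 (limma adjusted p 0.00639), against -0.50 with TAp63 (limma adjusted p 0.16). Without AsPC-1 mock replicate 2 neither deltaNp63 call was kept (limma adjusted p 0.0564 for TAP1 and 0.0578 for TAP2).

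PSMB8 was at 90.2 and 87.8 TPM with mock, 49.4 and 57.2 TPM with TAp63, and 35.5 and 53.6 TPM with deltaNp63. PSMB9 was at 67.9 and 68.0 TPM with mock, 35.6 and 39.8 TPM with TAp63, and 25.3 and 34.8 TPM with deltaNp63. The mock replicates were nearly equal and the deltaNp63 replicates far apart. PSMB9 fell with both constructs. Its log2 fold change was -0.84 with TAp63 (SE 0.126, limma adjusted p 0.0179), and -1.17 for deltaNp63 (limma adjusted p 0.00112). PSMB8 fell by 1.01 with deltaNp63 (limma adjusted p 0.0109), and its log2 fold change with TAp63 was -0.73 (limma adjusted p 0.0862). The PSMB9 call with deltaNp63 was kept in all 12 fits without 1 library, and that with TAp63 in 5. The TAp63 call was lost without AsPC-1 mock replicate 1 or 2 (limma adjusted p 0.136 and 0.114), AsPC-1 TAp63 replicate 1 (0.165) or any 1 PANC-1 library with a construct (0.0511 to 0.0536). PSMB8 with deltaNp63 was not called without AsPC-1 mock replicate 1 or 2 (limma adjusted p 0.0853 and 0.062).

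NLRC5, the transactivator of class I genes, was at 18.5 and 18.2 TPM with mock, 10.3 and 12.6 TPM with TAp63, and 6.09 and 10.2 TPM with deltaNp63. The groups did not overlap, the deltaNp63 replicates being the farthest apart. It fell by 1.12 with deltaNp63 (SE 0.195, limma adjusted p 0.02), and its log2 fold change with TAp63 was -0.64 (limma adjusted p 0.183). The deltaNp63 call was lost without AsPC-1 mock replicate 1 (limma adjusted p 0.12), mock replicate 2 (0.0787) or deltaNp63 replicate 1 (0.0647).

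**Figure D2:**
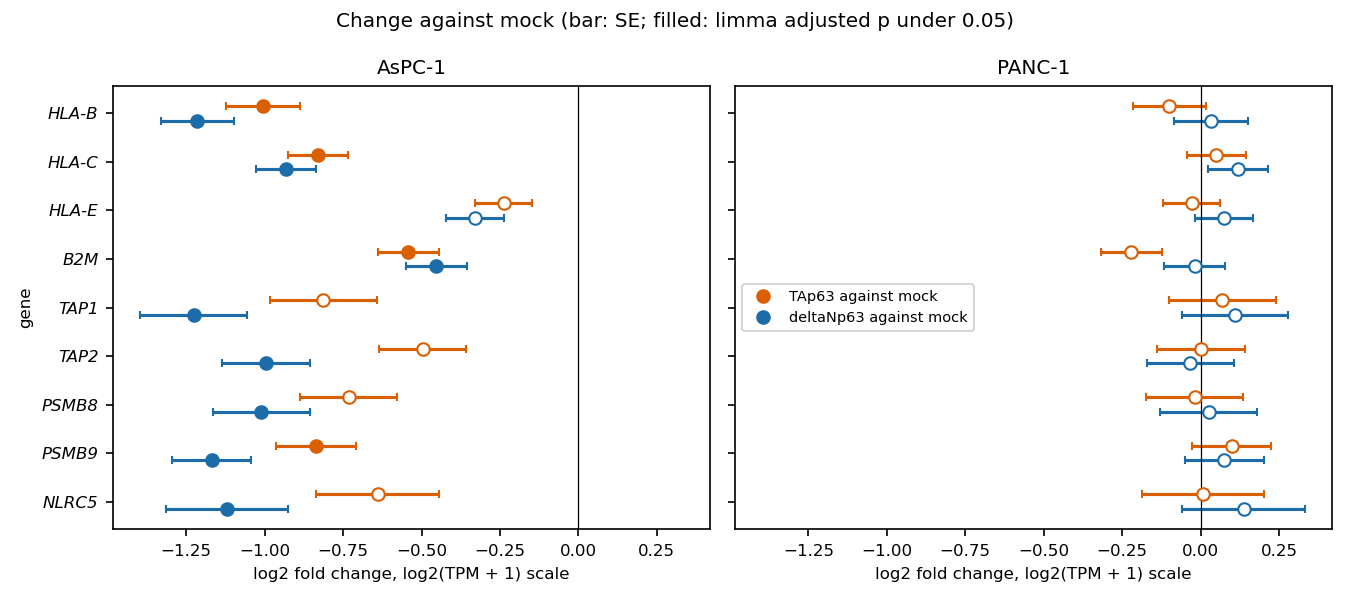
Log2 fold change against mock, on the log2(TPM + 1) scale, of the 9 genes in AsPC-1 (left) and PANC-1 (right); bars are the SE, filled points have a limma adjusted p under 0.05 and open points do not. In AsPC-1 all 18 points lie below 0, and in PANC-1 they lie between -0.22 and 0.14 with no filled point.

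With TAp63, then, 4 of the 9 genes fell in AsPC-1 (HLA-B, HLA-C, B2M and PSMB9), where 0.609% of all tested genes were called lower. With deltaNp63, 8 of 9 fell, all but HLA-E, where 6.51% of tested genes were called lower. The groups did not overlap for any of the 9 genes with either construct, mock being higher, as was the case for 35.4% of tested genes with TAp63 and 41.1% with deltaNp63. The median log2 fold change of the 9 genes was -0.73 with TAp63 and -1.01 with deltaNp63, against -0.08 and -0.12 for all tested genes. Both comparisons use the same mock libraries.

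These calls rest on the spread estimated over both cell lines. In a model of the 6 AsPC-1 libraries alone, the fold changes were the same and 0 of 9 genes passed with either construct. The limma adjusted p lay between 0.306 and 0.547 for TAp63 and between 0.128 and 0.248 for deltaNp63. That model has fewer libraries to estimate the spread, and its count is given without the share of all tested genes that passed. All 9 had an unadjusted p under 0.05 with each construct in the model of 12 libraries. Of all 14767 tested genes, 2233 did so with TAp63 and 4383 with deltaNp63. Leaving out 1 library gave between 2 and 8 genes for TAp63. The count was 8 without either AsPC-1 deltaNp63 library, and 2 without AsPC-1 TAp63 replicate 1, either AsPC-1 mock library, or any 1 PANC-1 library with a construct. For deltaNp63 it ranged from 3 without AsPC-1 mock replicate 2, and 5 without mock replicate 1, to 8. The counts without 1 library are given without the share of all tested genes that passed in the same fit. Median centring moved the median of all tested genes by 0.13 with TAp63 and by 0.21 with deltaNp63. On that scale the median of the 9 genes was -0.60 and -0.80, all 9 stayed below 0 with each construct, and 3 and 7 passed. Over all genes, centring turned the split with deltaNp63 from 961 lower of 1055 called to 170 lower of 419, and quantile normalization gave 148 lower of 199. With TAp63 it went from 90 lower of 94 to 63 of 74 with centring.

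The constructs were compared directly in AsPC-1. None of the 9 genes passed for TAp63 against deltaNp63 with limma, where 0.0203% of tested genes passed. An unadjusted p under 0.05 was found for 1170 of all 14767 tested genes and for 4 of the 9 (TAP1, TAP2, PSMB9 and NLRC5). Those 4 genes were lower with deltaNp63: TAP2 by 0.50 (SE 0.14, limma adjusted p 0.628) and NLRC5 by 0.48 (SE 0.195, limma adjusted p 0.628). HLA-C and B2M differed by 0.10 (SE 0.0946) and -0.09 (SE 0.0973). The result changed without AsPC-1 deltaNp63 replicate 2: some of the 9 genes passed, in a fit that held 1 library of that group. How many of all tested genes passed there is not given. The comparison of the constructs does not show that they act alike.

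The deltaNp63 replicates of AsPC-1 stood apart from each other in a pattern that split the genes. Replicate 2 exceeded replicate 1 by 1.36 times for TAP1, 1.45 for TAP2, 1.51 for PSMB8, 1.38 for PSMB9 and 1.67 for NLRC5. HLA-C had a ratio of 1.07, and HLA-B, HLA-E and B2M had ratios of 0.909, 0.916 and 0.834 in the same pair. TP63 was 1.43 times higher in replicate 2, and the summed epithelial markers were 7153 TPM in replicate 1 and 10020 TPM in replicate 2. The part of either in the gap between replicates was not tested.

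In PANC-1, no gene of the 9 passed for TAp63 against mock, deltaNp63 against mock or TAp63 against deltaNp63 with limma. The shares of all tested genes that passed were 0.00677%, 0.0406% and 0.0271%. At an unadjusted p under 0.05 the counts were 1, 0 and 0, against 503, 345 and 437 of all 14767 tested genes. The 1 gene was B2M with TAp63 at -0.22 (SE 0.0973, p 0.0469 before adjustment in limma). B2M was at 6016 and 6131 TPM with mock, 5414 and 5013 TPM with TAp63, and 6166 and 5835 TPM with deltaNp63. Its TAp63 libraries were the lowest of the line, while mock and deltaNp63 overlapped. Over the 6 libraries of the line, HLA-B ranged from 1034 to 1287 TPM with a median of 1203 TPM, and TAP1 from 175 to 223 TPM with a median of 202 TPM. PSMB8 varied by 1.08 times between its lowest and highest library, against 2.54 times in AsPC-1. NLRC5 ranged from 8.71 to 11.4 TPM.

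The cell lines differed before any construct was added. In the mock libraries 8 of the 9 genes were higher in PANC-1 and NLRC5 was lower, where 44.6% of all tested genes were called higher and 27.9% lower. HLA-B was 19.5 times higher (log2 difference 4.26, limma adjusted p 5.11e-10), TAP2 6.57 times, HLA-C 6.15 times and TAP1 3.51 times. PSMB9, PSMB8, B2M and HLA-E were 2.81, 2.31, 2.22 and 1.81 times higher. NLRC5 in PANC-1 was 0.527 times its AsPC-1 level (log2 difference -0.86, limma adjusted p 0.00249). The line with less of the transactivator's RNA had more of the other 8 RNAs. How reads were divided between near-identical HLA genes and alleles is not given in the sources used here, so HLA levels across the lines are uncertain.

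The difference between the lines in the effect of a construct was tested as an interaction. For deltaNp63, 4 genes passed, where 0.582% of tested genes did and 2431 of 14767 had an unadjusted p under 0.05. The change in AsPC-1 was lower than that in PANC-1 by 1.25 log2 units for HLA-B (SE 0.166, limma adjusted p 0.00876), 1.05 for HLA-C (SE 0.134, limma adjusted p 0.00661), 1.34 for TAP1 (SE 0.24, limma adjusted p 0.0475) and 1.24 for PSMB9 (SE 0.179, limma adjusted p 0.0127). The other 5 had differences of 0.40 to 1.26 with unadjusted p under 0.05 and did not pass. The count was 7 without AsPC-1 deltaNp63 replicate 2. It was 1 without AsPC-1 mock replicate 2, PANC-1 mock replicate 1 or PANC-1 deltaNp63 replicate 2, and 2 without AsPC-1 mock replicate 1, PANC-1 mock replicate 2 or PANC-1 deltaNp63 replicate 1. HLA-C was called in all 12 of these fits. TAP1 was called in 3 of the 12 and in 2 of 9 other settings. The share of all tested genes that passed in each fit without 1 library is not given. For TAp63, 8 of the 9 and 1540 of all 14767 tested genes had an unadjusted p under 0.05. None of the 9 passed with limma, where 0.0745% of tested genes did. HLA-C came nearest, at 0.88 (SE 0.134, limma adjusted p 0.0628). That count was 3 without either AsPC-1 deltaNp63 library and 1 without AsPC-1 TAp63 replicate 2.

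Ratios within a library do not depend on the scaling between libraries. PSMB8 to PSMB5, the inducible over the constitutive subunit with the same chymotrypsin-like site, was 0.733 and 0.752 in AsPC-1 mock, 0.527 and 0.526 with TAp63, and 0.375 and 0.469 with deltaNp63. PSMB9 to PSMB6 was 0.463 and 0.447 with mock, 0.292 and 0.298 with TAp63, and 0.272 and 0.253 with deltaNp63. Neither ratio overlapped between mock and a construct. PSMB10 to PSMB7 was 0.192 and 0.195 with mock, 0.143 and 0.145 with TAp63, and 0.110 and 0.163 with deltaNp63. In PANC-1 the group means of PSMB8 to PSMB5 were 0.841, 0.813 and 0.851 in the order mock, TAp63 and deltaNp63, and those of PSMB9 to PSMB6 were 0.811, 0.863 and 0.840.

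**Figure D3:**
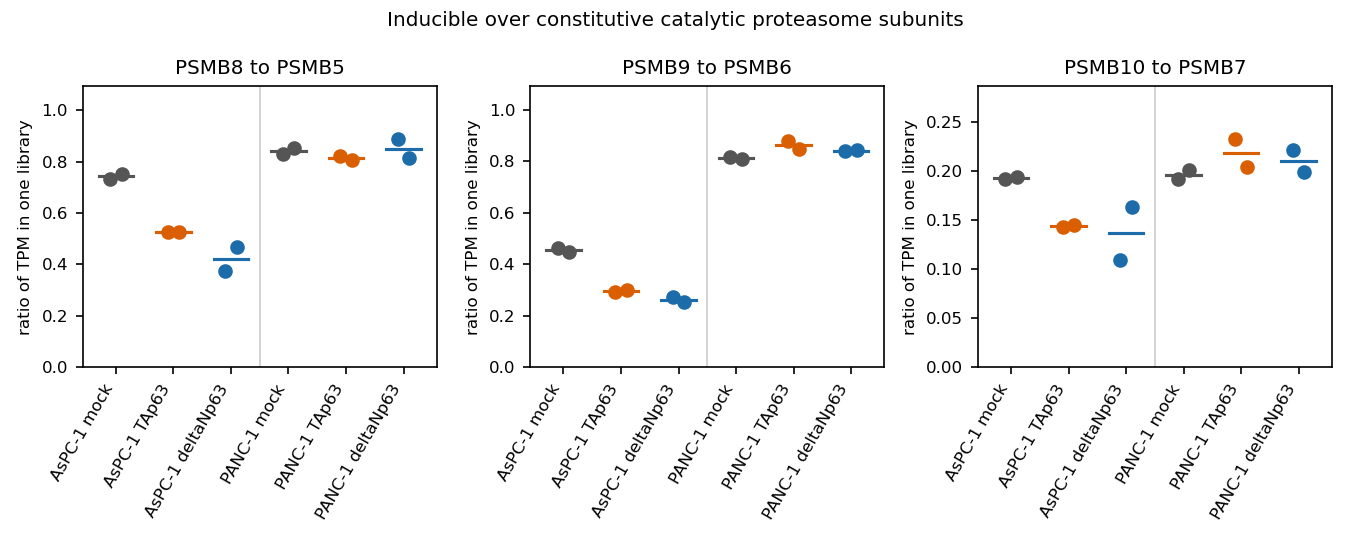
Ratio of TPM of each inducible proteasome subunit to the constitutive subunit it replaces, in the 12 libraries; points are libraries and lines are group means of 2. In AsPC-1 both construct groups lie below mock in all 3 panels, and in PANC-1 PSMB8 to PSMB5 stays between 0.805 and 0.887.

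Genes that work around the 9 were read from lists of related genes. Of all tested genes, 0.609% were called lower with TAp63 and 6.51% with deltaNp63. Among regulators of class I transcription, IRF1, an interferon-induced factor that binds class I promoters, fell by 0.77 with deltaNp63 (limma adjusted p 0.00925), RFX5, a subunit of the complex NLRC5 joins, by 0.86 (limma adjusted p 0.0322), and IRF2 by 0.59 (limma adjusted p 0.038). HLA-F, a non-classical heavy chain, was at 29.7 and 30.5 TPM with mock, 18.7 and 21.3 TPM with TAp63, and 24.4 and 20.1 TPM with deltaNp63 in AsPC-1. Both constructs lay below mock, and its log2 fold changes of -0.57 and -0.43 did not pass (limma adjusted p 0.0786 and 0.0576). Of 12 interferon receptor and signalling genes, STAT2 was the one called with each construct. STAT2, a factor of the type I interferon response, had log2 fold changes of -0.83 and -0.94 (limma adjusted p 0.00377 and 0.000842).

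In the peptide loading complex and the trimming enzymes, 0 of 10 genes passed with TAp63 and 4 fell with deltaNp63. The shares of all tested genes called lower were 0.609% and 6.51%. TAPBP, the tapasin chain that bridges the transporter and the heavy chain, was at 63.0 and 66.7 TPM with mock, 45.8 and 50.7 TPM with TAp63, and 34.4 and 42.7 TPM with deltaNp63. It fell by 0.74 with deltaNp63 (limma adjusted p 0.00618). The chaperone CALR fell by 0.55 (limma adjusted p 0.0366), and the trimming enzymes ERAP1 and ERAP2 by 0.50 and 0.47 (limma adjusted p 0.041 and 0.037). Among 6 immunoproteasome partners, 3 fell with deltaNp63 and 0 with TAp63: PSMB10 by 0.49 (limma adjusted p 0.0359), and the activator subunits PSME1 by 0.35 and PSME2 by 0.36 (limma adjusted p 0.0497 and 0.0173). LAP3, a cytosolic aminopeptidase, was the 1 of 6 peptidases that fell with deltaNp63, by 0.88 (limma adjusted p 0.00563).

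None of 13 constitutive 20S proteasome subunits tested passed with either construct, and their medians were -0.08 with TAp63 and 0.03 with deltaNp63. PSMB5 was at 123 and 117 TPM with mock and 94.9 and 114 TPM with deltaNp63. None of 7 genes of class I turnover and none of 8 NKG2D ligands, the stress signals that natural killer cells read, passed with either construct. Among all tested genes 0.609% were called lower with TAp63 and 6.51% with deltaNp63. Of 8 class II genes tested, 0 passed with TAp63 and 4 fell with deltaNp63: IFI30 by 0.71, HLA-DMA by 0.61, CD74 by 0.58 and CTSS by 0.50, with limma adjusted p between 0.0231 and 0.0487. IFI30 and CTSS are lysosomal enzymes, HLA-DMA helps load class II peptides and CD74 is the invariant chain. CD68, one of the leukocyte markers, also fell with deltaNp63, by 0.39 (limma adjusted p 0.0362). The summed leukocyte markers were 245 and 237 TPM with mock, 208 and 210 TPM with TAp63, and 212 and 199 TPM with deltaNp63, nearly all from LYZ and CD68, and their part in these results was not tested.

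**Figure D4:**
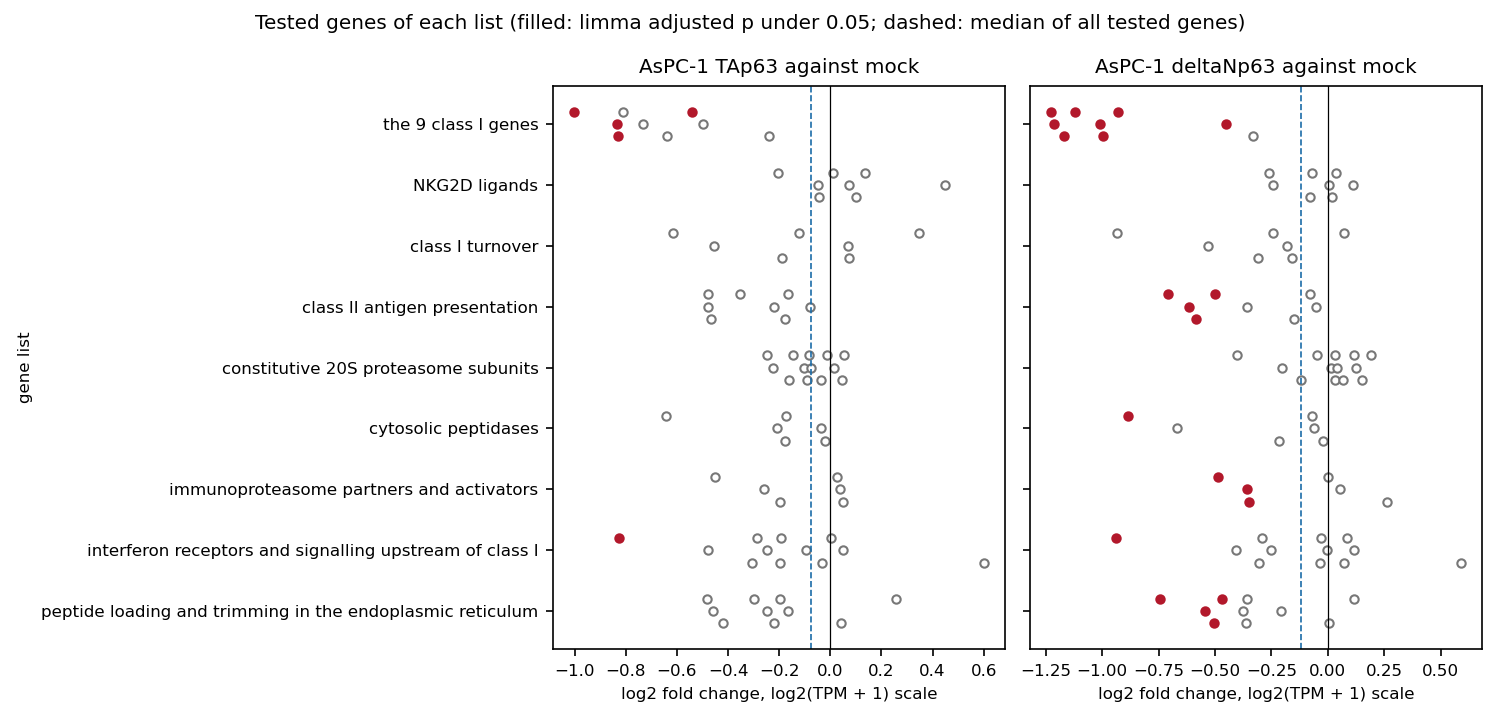
Log2 fold change, on the log2(TPM + 1) scale, of the tested genes of 9 lists in AsPC-1 with TAp63 (left) and deltaNp63 (right) against mock; each point is a gene, filled where limma adjusted p is under 0.05, and the dashed line is the median of all tested genes. With deltaNp63 filled points stand to the left of 0 for the 9 class I genes and for 5 of the 8 other lists, and there are none among the constitutive 20S subunits, the turnover genes or the NKG2D ligands.

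Several of these list calls depended on the scaling. With median centring, TAPBP, IRF1, LAP3 and STAT2 still fell with deltaNp63, while the other 12 list genes named above as falling did not pass, and PSMB1 and ATF1 passed as higher (limma adjusted p 0.032 and 0.0316). STAT2 passed in all 12 fits without 1 library with each construct. With deltaNp63, TAPBP and LAP3 passed in 11 of them, lost without AsPC-1 mock replicate 2 (limma adjusted p 0.0564) and mock replicate 1 (0.064), and IRF1 in 10, lost without mock replicate 2 (0.0668) or deltaNp63 replicate 1 (0.0633). PSME2 passed in 9. The other 11 passed in 1 to 5, and each was lost without either AsPC-1 mock library or deltaNp63 replicate 1. Fitted on AsPC-1 libraries alone, 0 genes of these lists passed. In PANC-1 no gene of any list passed with either construct. The deltaNp63 effect differed between lines for STAT2 by 0.94 (limma adjusted p 0.0141), IRF1 by 1.07 (0.017) and LAP3 by 0.95 (0.0484), the last passing in 3 of the 12 fits without 1 library.

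The genes whose levels tracked the mean of the 9 most closely over the 6 AsPC-1 libraries, among genes averaging at least 5 TPM and outside the lists, were SSU72, SRSF9, OAS2, TM4SF5 and NPDC1, with Pearson's r of 0.999 for the first and 0.998 for the others. The libraries share 3 groups and 1 line, so these values are a description. Sizes of change differed widely: OAS2, an antiviral enzyme, fell by 2.71 with deltaNp63 (limma adjusted p 7.37e-05), whereas SSU72 moved by -0.23 (limma adjusted p 0.0667).

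Transcript rows behind the gene sums are less certain for HLA genes. A gene listed in the annotation can also have copies on alternative haplotypes, and 13510 of the 153329 transcript rows, with 9.46% to 10.4% of the TPM of a library, matched no annotated transcript and were left out. The table held 6 of the 13 annotated HLA-B transcripts, 9 of 9 for HLA-C, 3 of 3 for HLA-E and 8 of 12 for B2M. For TAP1 and TAP2 it held 3 of 11 and 2 of 9. HLA-B (chromosome 6, 31353872 to 31367067, minus strand, GENCODE v44 on hg38) was carried in AsPC-1 by the coding transcript ENST00000412585, with 94.9% to 98.4% of its TPM. In PANC-1 that transcript held 58.3% to 70.3%, and the retained-intron transcript ENST00000481849 held 28.4% to 41.0%, against 0% to 3.73% in AsPC-1. The coding HLA-C transcript ENST00000376228 held 36.7% to 51.9% in AsPC-1 and 80.4% to 89.7% in PANC-1. When each gene was read from its most abundant transcript row, 2 genes passed with TAp63 and 6 with deltaNp63 in AsPC-1. PSMB9 overlaps PSMB8-AS1 on its own strand, and TAP2 overlaps ENSG00000250264 on its own strand, so part of their values could belong to each other. PSMB9 also overlaps PSMB8 and TAP1 on the opposite strand. The kit was stranded, but whether the quantification used the strand is not given in the sources used here.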

How the data were processed

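RNA of 12 libraries, 2 in each of 6 groups, was made into libraries with a stranded poly(A) mRNA kit, per the labels' protocols. The authors deposited TPM per Ensembl transcript, a relative abundance that sums to 1000000 in a library. The quantifier, genome build and annotation are not given in the sources used here. Depth is unknown, since TPM does not keep it, and no counting error was computed.

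Transcripts were paired with genes through GENCODE v44, which matched 139819 of 153329 rows, and summed to 39099 genes. log2(TPM + 1) was fitted with limma 3.58.1 (group means, eBayes with trend) in R 4.3.3 for genes at 1 TPM or more in 2 or more libraries. P-values were two-sided, with 6 residual degrees of freedom, 9 contrasts, Benjamini-Hochberg adjustment within a contrast and a threshold of 0.05. The fit was tested on simulated data. Beyond the 9 genes, up to 4 per list were named: those with the largest fold change among genes that passed without overlap, and standing pathway genes whatever their result. The 9 genes, the lists and the settings were chosen with earlier results of these data known. Alternatives were no trend, 2 other scalings, 2 other filters, a pseudocount of 0.1, models of fewer libraries, a replicate block, single transcript rows and leaving out each library. Applying them to the lists was decided after the data were seen. Results for some further genes are not reported here.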

Additional observations from a re-analysis of the deposited data

Results flagged for a closer look

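For 4 of the 9 genes the effect of deltaNp63 differed between the cell lines in the limma interaction test, each lower with deltaNp63 in both AsPC-1 replicates. The change in PANC-1 minus that in AsPC-1 was 1.25 log2 units for HLA-B, 1.05 for HLA-C, 1.34 for TAP1 and 1.24 for PSMB9. In PANC-1 the changes themselves were 0.03, 0.12, 0.11 and 0.08. The smallest margin was that of TAP1, which passed in 3 of the 12 fits without 1 library and in 2 of 9 other settings, with limma adjusted p between 0.00938 and 0.204 over those 9. HLA-B was called in 9 of the 12 fits and in 9 of the 9 settings. HLA-C was called in 12 and 8 of them, and PSMB9 in 6 and 7.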

How the results depend on the processing

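Precision rests on 2 libraries per group, and depth is unknown. No fold change of a called gene changed sign under any setting run. By design, no trend, the other filters, the models of fewer libraries and the replicate block leave a fold change as it was. So does leaving out a library of a group not compared, and signs could change only under the other settings. Over single genes and settings, 251 results stayed past the threshold and 97 did not. For TAp63 in AsPC-1 the count of 4 became 2 with no filter on low values, 2 with single transcript rows, 0 in a model of the groups compared and 0 with the line's 6 libraries. For deltaNp63 the count of 8 became 0 in both smaller models. The cell-line difference for TAp63 went from 0 to 1 with a mean of at least 5 TPM and to 1 with only the groups compared, and that for deltaNp63 from 4 to 2 with only the groups compared and to 1 with transcript rows. The smaller models hold fewer libraries to estimate the spread. The cause of the other moves was not tested. Apart from median centring, counts under other settings are given without the share of all tested genes called there. Leaving out 1 library gave 2 to 8 genes for TAp63, 3 to 8 for deltaNp63, 0 to 4 between the constructs in AsPC-1, 0 to 3 for the cell-line difference with TAp63 and 1 to 7 with deltaNp63, where the lone library of a group was assumed to vary like the others. The mock lines differed in 9 of 9 genes, and PANC-1 gave 0, under every setting run.

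The labels number the replicates and state no pairing. Over the tested genes, deviations of same-numbered libraries correlated between -0.094 and 0.293, the highest for AsPC-1 TAp63 with deltaNp63. These correlations cannot settle whether same-numbered libraries were handled together. With the replicate block 5 genes passed for TAp63 in AsPC-1 and 8 for deltaNp63, and 4 for the cell-line difference with deltaNp63. TAP1 with TAp63 was the added call (limma adjusted p 0.0163).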
